A study of Mus musculus with 14 samples.

Results

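The response to β-lapachone (βL) was compared between skeletal muscle and brain of aged mice as the difference between the tissues of the βL-minus-control difference. The 9 arrays of the control and βL diets in both tissues, of 14 in the series, were normalized together. Of 25697 probes, 10883 were above background (detection p under 0.05) on at least 2 arrays in each tissue. They gave 7771 named genes of 16593 on the array, each represented by its brightest probe. Genes that moved the same way in both tissues were taken from the same fit.

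The mice were male C57BL/6J, with no engineered allele named in the sources, and the diets began at 13 months of age. The control group ate a normal diet, which the labels call untreated control, and the βL group, labelled MB, ate that diet with 0.066% βL added. The study also had calorie-restricted mice (CR, 70% of the control food), whose arrays entered only alternatives normalized over all 14 arrays, and whose levels stand in the closing observations. Muscle was measured on 2 control and 3 βL arrays, and brain, given as cortex in the series description, on 2 control and 2 βL arrays. The muscle taken and the time on the diet before RNA was prepared are not given in the sources used here. They do not state whether each array of a group had its own mouse. P-values thus cover only the spread between arrays, part of which can be technical, and the small number of arrays limits the precision.

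βL is a quinone. The enzyme NQO1 reduces it with NADH as the electron donor, so that NAD+ is formed, and NAD+ is used by the sirtuins and is linked to the energy sensor AMPK. Skeletal muscle is rich in mitochondria and holds resident macrophages and fat cells between its fibres. In brain the resident macrophages are microglia, and lipocalin-2 and the S100 proteins A8 and A9 are classical markers of inflammation in either tissue.

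Tissue labels matched their markers. All 14 skeletal muscle fibre genes on the array were above background on every muscle array and 3 to 5 of them on a brain array, while 12 of 15 neuron genes were detected on every brain array and 3 to 4 on a muscle array. Median intensities before normalization ranged from 153 to 164.6 on muscle arrays and from 79.9 to 127 on brain arrays. Arrays of a muscle group were less alike than those of a brain group, with a standard deviation (SD) of the log2 difference between 2 arrays of 0.37 to 0.457 in muscle and 0.17 to 0.175 in brain. The array labelled muscle control 1 stood apart from the other muscle arrays. It was low in slow-twitch fibre genes, as with the troponin gene Tnnc1, at 7.68 on that array on the log2 scale and 13.90 to 15.02 on the other muscle arrays. It also showed 10 of 14 genes of proteins secreted by liver above background, against 2 on each other muscle array. Values without it stand beside the results that rest on it most.

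Across all 7771 genes the βL differences of muscle and brain did not run in parallel. The sign was the same in 48.3% of the genes, and the correlation of both differences across genes, which are not independent replicates, was -0.108. On the sign alone, 24.4% of genes were higher in muscle and lower in brain, 27.3% were lower in muscle and higher in brain, 21% were higher in both and 27.3% were lower in both. The differences were wider in muscle, where 547 genes reached 1.5-fold, than in brain, where 52 did, with an SD over genes of 0.332 and 0.177 on the log2 scale. The pooled SD between arrays of a group was also wider in muscle, 0.299 against 0.122 in brain, and its part in that difference was not tested. All control arrays lay on one side of all βL arrays in 22.8% of genes in muscle and in 41% in brain. These shares cannot be compared between tissues. Arrays in random order separate less often at 2 against 3, as in muscle, than at 2 against 2, as in brain.

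**Figure D1:**
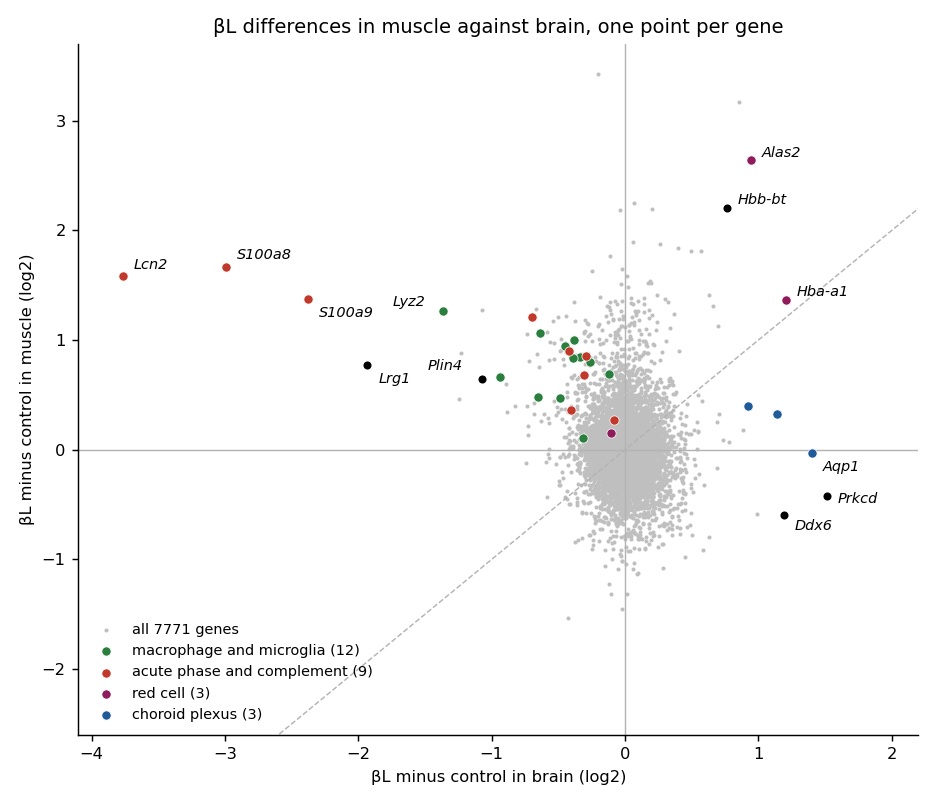
βL minus control in brain (horizontal axis, log2) and in muscle (vertical axis, log2) for the 7771 genes, with 4 gene lists in colour and single genes labelled. The dashed line marks equal differences. Lcn2 lies at -3.77 in brain and 1.58 in muscle, and the macrophage and acute phase genes lie to its right in the same quadrant, higher in muscle and lower in brain.

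The test of the interaction, muscle difference minus brain difference, called 2 genes at an adjusted p under 0.05 (limma, Benjamini-Hochberg over 7771 genes). In both the muscle difference lay above the brain difference, 0.0257% of all genes tested. In the other direction the count was 0 of 7771, or 0%. At an unadjusted p under 0.05 the muscle difference was above the brain difference in 4.11% of all genes and below it in 3.59%. The 2 genes were Lcn2 and Lrg1, both of which encode secreted proteins that rise in inflammation.

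Their promoters are shown because these are the genes in which the tissues differed by the test. The sequences are those of RefSeq on build GRCm38.p6, from 250 bases before to 50 bases after the start, 5′ to 3′ on the gene's strand. Capitals mark matches, on either strand, to motifs of factors that act in stress, clock and inflammatory responses. Lcn2 is at chr2:32387690-32387989 on the minus strand and Lrg1 at chr17:56121897-56122196 on the minus strand.
Lcn2: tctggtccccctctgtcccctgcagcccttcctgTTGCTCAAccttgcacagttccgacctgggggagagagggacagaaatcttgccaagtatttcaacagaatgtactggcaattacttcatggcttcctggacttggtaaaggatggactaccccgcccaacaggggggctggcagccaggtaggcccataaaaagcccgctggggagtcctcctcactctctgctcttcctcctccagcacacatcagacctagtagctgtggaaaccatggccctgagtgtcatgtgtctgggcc
Lrg1: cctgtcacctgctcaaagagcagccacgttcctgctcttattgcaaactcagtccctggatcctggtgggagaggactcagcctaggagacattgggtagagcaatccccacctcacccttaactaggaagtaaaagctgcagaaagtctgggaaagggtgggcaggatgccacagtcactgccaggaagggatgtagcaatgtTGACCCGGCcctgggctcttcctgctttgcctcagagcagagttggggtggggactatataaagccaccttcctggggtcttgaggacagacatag
In the Lcn2 window the match was to the C/EBP site TTGCNNAA, which 10.8% of all 32851 promoters in the table held. In the Lrg1 window it was to the antioxidant response element TGACNNNGC, held by 12.4% of promoters. Neither window held the E-box CACGTG (7.15% of promoters), the D-box TTATGNAA (3.38%), the glucocorticoid response element (0.475%) or the STAT site TTCNNNGAA (8.3%), and no match overlapped another. The C/EBP and STAT motifs were chosen after the values were seen. Among the 20 genes called or nearest a call for the interaction or for the same direction, 18 had a promoter in the table. Of their 23 promoters, 34.8% held at least 1 of the 6 motifs, against 35.4% of all promoters.

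Lcn2 (probe ILMN_2712075) encodes lipocalin-2, a protein of neutrophil granules and of activated glia that binds bacterial iron carriers. In brain its log2 normalized intensity was 8.45 and 8.53 on the control arrays and 4.77 and 4.67 on the βL arrays. In muscle it was 5.34 and 5.07 on the control arrays and 6.77, 6.85 and 6.74 on the βL arrays. The order of the diets was thus opposite in the tissues, with no overlap between diets in either. Neither βL array of brain and neither control array of muscle was above background, so that the folds are bounds. The level was at least 10.01-fold lower on βL in brain and at least 2.04-fold higher on βL in muscle, the mean of the bright group being set against the higher of the dim probe's own signal and the lowest signal above background on each dim array. The fitted differences were -3.77 ± 0.13 (SE) in brain (limma, adjusted p = 6.04e-06) and 1.58 ± 0.12 in muscle (adjusted p = 0.00438). These fitted values include the dim groups' own signals below background. The interaction was 5.35 ± 0.18 (limma, adjusted p = 4.03e-06), where the bounds of both tissues add up to 4.35, and it was past the threshold in all 22 alternative settings that kept the gene, where it ranged from 2.76 on the authors' normalized values to 5.53 without muscle control replicate 1.

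Lrg1 (probe ILMN_2652500) encodes leucine-rich alpha-2-glycoprotein, an acute phase protein of liver, neutrophils and vessels. In brain it measured 7.95 and 7.96 on control and 5.88 and 6.16 on βL. In muscle it measured 9.46 and 9.73 on control and 10.58, 10.25 and 10.28 on βL. As with Lcn2, βL arrays were low in brain and high in muscle, without overlap. The brain difference of -1.93 ± 0.17 passed the test (limma, adjusted p = 0.00619, and 0.133 to 0.138 without brain control replicate 1, brain control replicate 2 or βL brain replicate 1), the muscle difference of 0.77 ± 0.15 did not (adjusted p = 0.102), and the interaction of 2.70 ± 0.23 did (adjusted p = 0.00474). The interaction of Lrg1 lost its call in 6 of 23 alternative settings, at an adjusted p of up to 0.146, among them without brain control replicate 1 (0.0596), brain control replicate 2 (0.0604) or βL brain replicate 1 (0.0502), and with the replicate number as a block (0.0919).

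**Figure D2:**
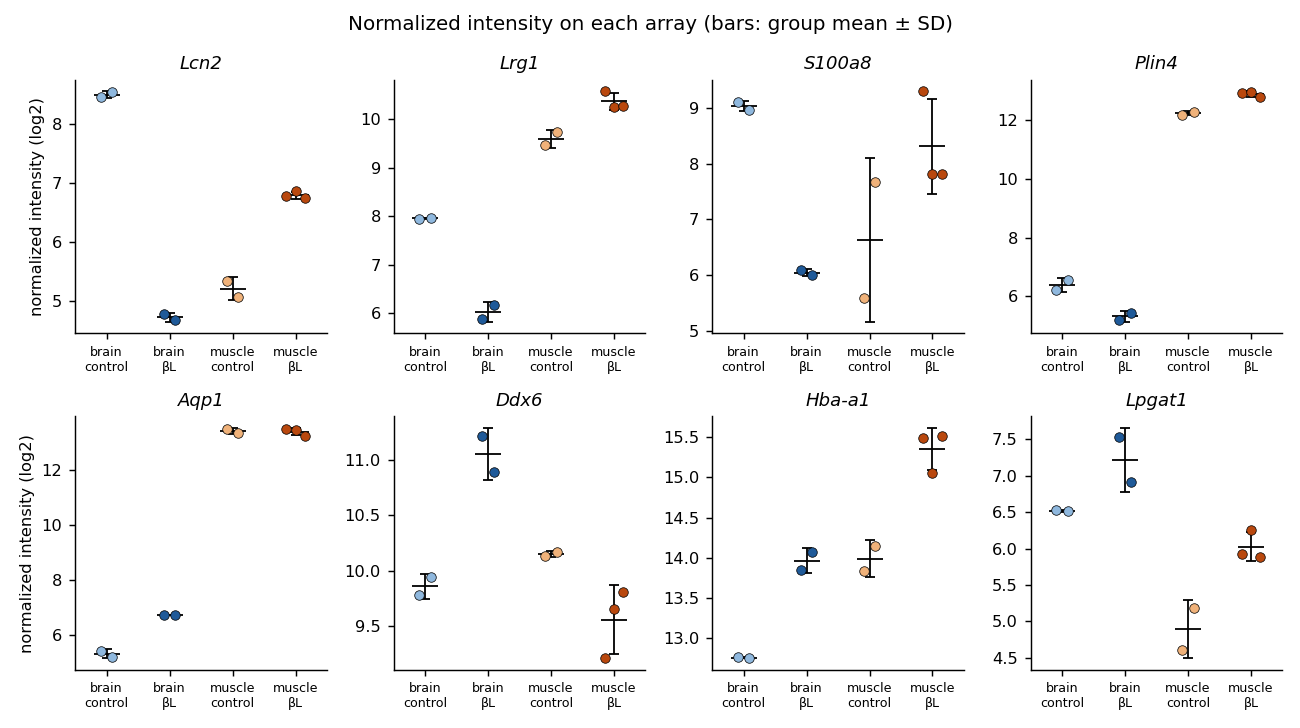
Log2 normalized intensity of 8 genes on each of the 9 arrays (points), with group means and SD (bars), each panel on its own scale. In Lcn2, Lrg1, S100a8 and Plin4 the βL arrays are low in brain and high in muscle, in Ddx6 the reverse, in Aqp1 only the brain groups separate, and in Hba-a1 and Lpgat1 the βL arrays are high in both tissues.

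Of the next genes in order of p with the muscle difference above the brain difference, none passed the adjusted threshold. Plin4 encodes a coat protein of lipid droplets in fat cells and muscle. It measured 6.23 and 6.57 on control and 5.20 and 5.45 on βL in brain, and 12.18 and 12.28 on control and 12.92, 12.94 and 12.76 on βL in muscle, again without overlap in either tissue. Its interaction was 1.72 ± 0.22 (limma, adjusted p = 0.074), and 7 of 23 alternatives called it. Plin4 and Lrg1 are neighbours on the same strand of chromosome 17, with starts 12164 bases apart, and 2 of the 3 smallest interaction p-values of the 7771 genes tested thus fell in this stretch. Plin5, another lipid droplet coat gene, lies between them. Its difference was 0.65 in muscle and -0.14 in brain, with an interaction of 0.79 (adjusted p = 0.717). For Sema6b, the gene on the other side of Lrg1, the interaction was 0.67 (adjusted p = 0.558). These neighbours were looked up after the values of Plin4 and Lrg1 were seen.

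Pygb and Selenbp2 completed the 5 genes on this side and differed from those before in their small brain differences, -0.02 and -0.30. Pygb, the brain form of glycogen phosphorylase, which releases glucose units from glycogen, measured 7.18 and 7.52 on control and 8.89, 8.54 and 8.68 on βL in muscle, and 10.51 to 10.61 on all 4 brain arrays. Its muscle difference of 1.36 ± 0.15 passed the test (limma, adjusted p = 0.023), while the interaction of 1.38 did not (adjusted p = 0.192). Selenbp2, a selenium-binding protein of liver, showed a muscle difference of 1.18 ± 0.16 (adjusted p = 0.0477) and an interaction of 1.48 (adjusted p = 0.192). Selenbp2 was not above background on all 9 arrays, so that its fitted values include signal below background.

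In the other direction, where the brain difference lay above the muscle difference, Aqp1 came first. Aquaporin-1 is a water channel of red cells, capillaries in muscle and the choroid plexus, the tissue that makes cerebrospinal fluid. It measured 5.43 and 5.20 on control and 6.72 and 6.71 on βL in brain, against 13.23 to 13.49 on the 5 muscle arrays, where the diets overlapped. The control values in brain lay near the lowest signal above background on those arrays, 5.188 and 5.191. The brain difference of 1.40 ± 0.14 passed the test (limma, adjusted p = 0.0139), and the interaction of -1.43 ± 0.19 did not (adjusted p = 0.0957). That brain difference was 0.60 on the authors' normalized values, and 14 of 23 alternatives called it. Under 4 of 4 fits without 1 of the brain arrays the brain call of Aqp1 was lost, at an adjusted p of 0.133 to 0.388.

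Ddx6, an RNA helicase of processing bodies, measured 9.78 and 9.94 on control and 11.22 and 10.89 on βL in brain, and 10.13 and 10.17 on control and 9.21, 9.65 and 9.81 on βL in muscle. The groups did not overlap in either tissue, and the interaction was -1.79 ± 0.28 (limma, adjusted p = 0.192). The 3 remaining genes had interactions of -1.27 for Pcdh17, a cell adhesion protein of neurons, -1.18 for Btbd9 and -1.10 for Col24a1, a fibrillar collagen, with adjusted p-values of 0.239, 0.27 and 0.27. All 3 were lower on βL in muscle and higher on βL in brain. Pcdh17 was not above background on all 9 arrays, so that its fitted values include signal below background.

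Within each tissue the same fit called more genes in muscle than in brain. In muscle 7 genes rose (0.0901% of all tested) and 1 fell (0.0129%). Besides Lcn2, Pygb and Selenbp2, those that rose were Cdr2 (1.00 ± 0.11), Tkfc (0.89), a kinase of fructose metabolism, Arhgap4 and the hemoglobin gene Hba-a1 (1.36). Arhgap4 was above background on no control array and was at least 1.69-fold higher on βL. The gene that fell was Mef2d, a transcription factor of muscle differentiation, which was above background on no βL array and was at least 1.25-fold lower. In brain 1 gene rose (0.0129%), Aqp1, and 2 fell (0.0257%), Lcn2 and Lrg1. These counts rest on 1 spread shared by both tissues. With a spread of its own for each tissue the count was 25 in brain (9 up, 16 down) and 1 in muscle, and with each tissue fitted alone it was 16 in brain and 0 in muscle, where 650 genes had an unadjusted p under 0.05. Without muscle control replicate 2, which left replicate 1 as the only muscle control, there were 278 muscle calls and 42 interaction calls, and without βL muscle replicate 2 there were 83 and 11. Leaving out muscle control replicate 1 gave 2 and 2. The muscle calls of all these genes but Lcn2, those of Cdr2 and Tkfc among them, were lost without that array. They were also lost without any 1 of the brain arrays. Each of these fits left 1 array in a group.

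No gene passed the test for the same direction in both tissues, 0 of 7771 (0%), which asks that the larger of both p-values pass after adjustment by limma's p and the Benjamini-Hochberg method. Before adjustment 8 genes had both p-values under 0.05. At 1.5-fold without overlap of the diets in either tissue, 6 genes were higher on βL in both (0.0772% of all tested) and 0 were lower in both (0%). By the same criterion 11 were higher in muscle and lower in brain (0.142%), and 3 were lower in muscle and higher in brain (0.0386%).

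Genes of hemoglobin and heme made up 3 of the 6 that were higher in both. Hba-a1, an alpha-globin gene with a near-identical copy that the probe may not tell apart, had the smallest p for this test. It measured 12.76 and 12.75 on control and 13.85 and 14.07 on βL in brain, and 13.83 and 14.15 on control and 15.49, 15.05 and 15.52 on βL in muscle. The βL arrays were the higher ones in both tissues, by 1.21 ± 0.19 in brain (limma, adjusted p = 0.262) and 1.36 ± 0.18 in muscle (adjusted p = 0.0477), and the interaction was 0.16 ± 0.26 (adjusted p = 0.911). Its muscle call was lost in 13 of 23 alternatives, among them without muscle control replicate 1 (adjusted p = 0.155). With a spread of its own for each tissue, the brain difference was past the threshold (adjusted p = 0.0019) and the muscle difference was not (0.124). Hbb-bt, a beta-globin gene, was higher by 0.76 in brain and 2.204 in muscle. Alas2, the first enzyme of heme synthesis in red cell precursors, measured 6.09 and 6.22 on control and 6.88 and 7.32 on βL in brain, and 7.56 and 8.33 on control and 11.49, 9.47 and 10.79 on βL in muscle.

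Red cell markers were read as a whole list beside them, of which Hba-a1, Alas2 and Fech were tested. Fech, the last enzyme of heme synthesis, was at 0.15 in muscle and -0.10 in brain. The summed normalized intensity of the list's 7 genes was 7127 to 7214 in brain on control and 15040 to 17580 on βL. In muscle it was 15140 to 18810 on control and 35010 to 49640 on βL. Most of each sum was the signal of Hba-a1 alone. The mean log2 value over the 7 genes, Hba-a1 among them, was 6.34 to 6.39 on control and 6.69 to 6.70 on βL in brain. In muscle that mean was 7.17 to 7.35 on control and 7.71 to 8.57 on βL. Of the 7 genes, 3 to 4 were above background on each brain array and 4 to 5 on each muscle array. Slc4a1, the anion exchanger of the red cell membrane, was above background on all 3 βL muscle arrays, at 8.82, 6.34 and 8.65, and on neither control array, at 4.79 and 5.15. The part that red cells left in the tissue had in the higher globin values was not tested.

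The other 3 genes higher in both were Lpgat1, Mest and Rbm47. Lpgat1, an acyltransferase of phospholipid synthesis, measured 6.53 and 6.51 on control and 7.53 and 6.91 on βL in brain. In muscle both control arrays were below background (4.61 and 5.18), while the βL arrays measured 5.93, 6.26 and 5.89, at least 1.21-fold higher. Mest, an imprinted gene of expanding fat tissue, differed by 0.63 in brain and was at least 1.76-fold higher on βL in muscle, where no control array was above background, and Rbm47, an RNA-binding protein, differed by 0.66 and 1.31. Below 1.5-fold in brain, Insig1, a regulator of sterol synthesis, was higher by 0.34 in brain and 0.65 in muscle, and Tmem98 by 0.35 and 0.62. None of these passed the adjusted test.

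Genes lower in both tissues showed smaller differences. Of those named here, Cacnb1 was not above background on all 9 arrays. Metrn, a secreted factor of glia and muscle, measured 10.05 and 10.01 on control and 9.33 and 9.55 on βL in brain, and 10.21 and 9.85 on control and 9.57, 9.61 and 9.61 on βL in muscle. Its differences were -0.59 in brain and -0.43 in muscle, and the larger of its 2 unadjusted p-values in the limma fit was 0.0117. Without muscle control replicate 1 the muscle difference was -0.25. Septin9 of the cytoskeleton (-0.42 in brain, -0.50 in muscle), the purine synthesis enzyme Adsl (-0.36 and -0.50), Hcfc1r1 (-0.35 and -0.31) and the calcium channel subunit Cacnb1 (-0.45 and -0.43) followed, all with an adjusted p of 1 for the same direction.

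Gene lists for pathways and cell types were described by how many members moved which way and by their median, beside all genes, whose median difference was -0.03 in muscle, -0.00 in brain and -0.02 for the interaction. Members had to be above background on 2 arrays of each tissue to be tested. A gene near background that was low on βL in brain and on control in muscle passed this filter through the groups where it was high, so that its signs were in part set by the filter. Counts of signs are therefore given over the members above background on all 9 arrays, while medians and p-values are over all members tested. Few genes were called at all (0.0257% by the interaction test), so that a list without a called member says little about its members.

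**Figure D3:**
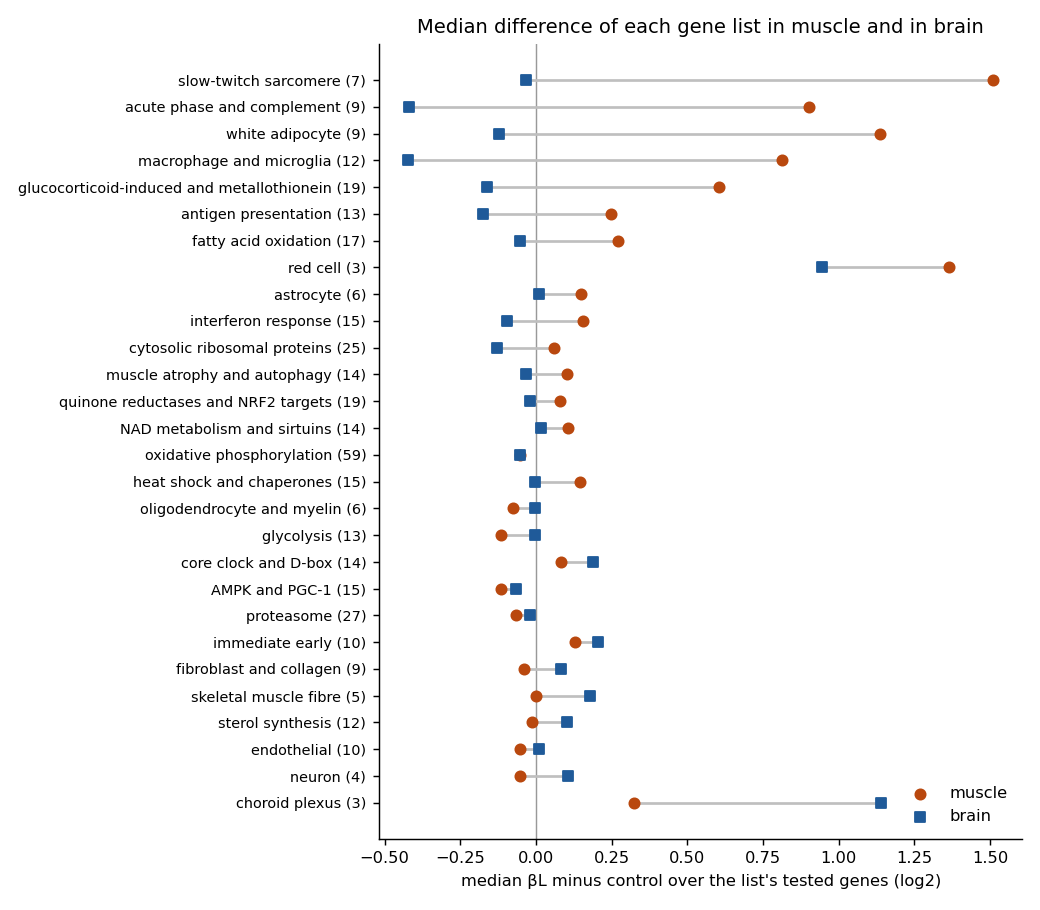
Median βL-minus-control difference (log2) over the tested genes of lists with at least 3 of them, without the lists written after the values were seen, in muscle (circles) and brain (squares), ordered by the median interaction, with the number of genes in brackets. The acute phase and the macrophage list lie at 0.90 and 0.81 in muscle and at -0.42 and -0.42 in brain. Of their genes, 5 of 9 and 3 of 12 were not above background on all 9 arrays, so that the filter can in part set these medians. Of the lists plotted, red cell and choroid plexus lie far above 0 in brain.

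Acute phase and complement genes above background on all 9 arrays, 4 in number, were higher in muscle and lower in brain in 4 of 4, where 24.4% of all genes tested had these signs. Of 17 genes on the list 15 were on the array and 9 passed the filter, a set that includes the Lcn2 values above, and the other 5 were below background on at least 1 array. The medians over the 9 were 0.90 in muscle, -0.42 in brain and 1.32 for the interaction. They include those 5 genes, whose signs can be in part set by the filter, and are given as a description only. S100a8 and S100a9 form calprotectin, a calcium-binding complex of neutrophils and monocytes. S100a8 measured 9.10 and 8.97 on control and 6.09 and 6 on βL in brain, a gap far wider than either pair. In muscle it measured 5.6, below background, and 7.68 on control and 9.30, 7.81 and 7.82 on βL, where the control arrays were farther apart than control replicate 2 was from the nearest βL array. Its fitted interaction, which includes the value below background, was 4.67 ± 0.89 (limma, adjusted p = 0.27). S100a9 was not above background on either βL array of brain (5.14 and 5.05, against 7.60 and 7.34 on control) and was at least 4.95-fold lower there. In muscle 1 of its 2 control arrays was below background, and the fitted interaction was 3.75 (adjusted p = 0.27).

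Serpina3n, a protease inhibitor of reactive astrocytes and liver, measured 8.96 and 8.99 on control and 8.19 and 8.37 on βL in brain, and 8.02 and 8.72 on control and 9.82, 9.58 and 9.33 on βL in muscle. Its interaction was 1.90 ± 0.32 (limma, adjusted p = 0.239). Complement C4b followed at 1.32 (adjusted p = 0.327). The median of the list in muscle was 0.63 without muscle control replicate 1.

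Genes of neutrophil granules and myeloid cells, a list written after the values were seen, hold Lcn2, Lrg1, S100a8 and S100a9. Of 20 genes 19 were on the array and 8 were tested. Only 3 of the 8, Mmp9, Lyz1 and Lrg1, were above background on all 9 arrays, so that no count of signs and no median is read from this list. The summed intensity of the 19 genes was 3518 to 3589 in brain on control and 1288 to 1434 on βL, and 5431 to 8326 in muscle on control and 8754 to 16400 on βL. These sums hold the signal of Lcn2, Lrg1, S100a8 and S100a9, already reported above, and are a description only. Among granule genes that define neutrophils, Ltf, the gene of lactoferrin, measured 6.30 and 6.21 on control and 4.81 and 4.72 on βL in brain. Camp measured 5.82 and 5.63 on control and 5 and 4.82 on βL. The βL values of both genes lay below the lowest signal above background on those arrays, 5.193 and 5.135, and are not measured levels. Camp and Ngp were above background on 2 brain arrays each and on no muscle array, and Mpo, Mmp8, Retnlg and Cxcr2 on no array. The part of blood neutrophils in the tissue in these differences was not tested.

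Macrophage and microglia genes above background on all 9 arrays were higher in muscle and lower in brain in 9 of 9. The list had 19 genes, 16 on the array and 12 tested. Of the 12, 0 passed the adjusted test of the interaction, as against 0.0257% of all genes tested. The medians were 0.81 in muscle, -0.42 in brain and 1.20 for the interaction. C1qb, a chain of complement C1q made by microglia and macrophages, measured 10.32 and 10.26 on control and 9.60 and 9.70 on βL in brain, and 8.56 and 9.16 on control and 10.40, 9.35 and 10 on βL in muscle. Its interaction was 1.70 (limma, adjusted p = 0.368). The macrophage receptor Adgre1 (1.38) and the signalling adaptor Tyrobp (1.18) had an adjusted p of 0.378 each in the limma fit, and the lysozyme gene Lyz2 had the largest value of the list, 2.63 (adjusted p = 0.423).

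The muscle side of this list varied more between arrays than the brain side. The summed intensity of all 16 genes was 9145 to 9189 in brain on control and 6560 to 6924 on βL, and 4261 to 6178 in muscle on control and 6298 to 12950 on βL. βL muscle replicate 2 was the lowest of the βL arrays and lay close to control replicate 2. Without muscle control replicate 1 the median in muscle was 0.42. Cx3cr1, a receptor that marks microglia, was not tested, being above background on 1 muscle array, and measured 9.43 and 9.63 on control and 9.52 and 9.71 on βL in brain, where the diets overlapped. In whole tissue, fewer cells of a type and less RNA per cell cannot be told apart.

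**Figure D4:**
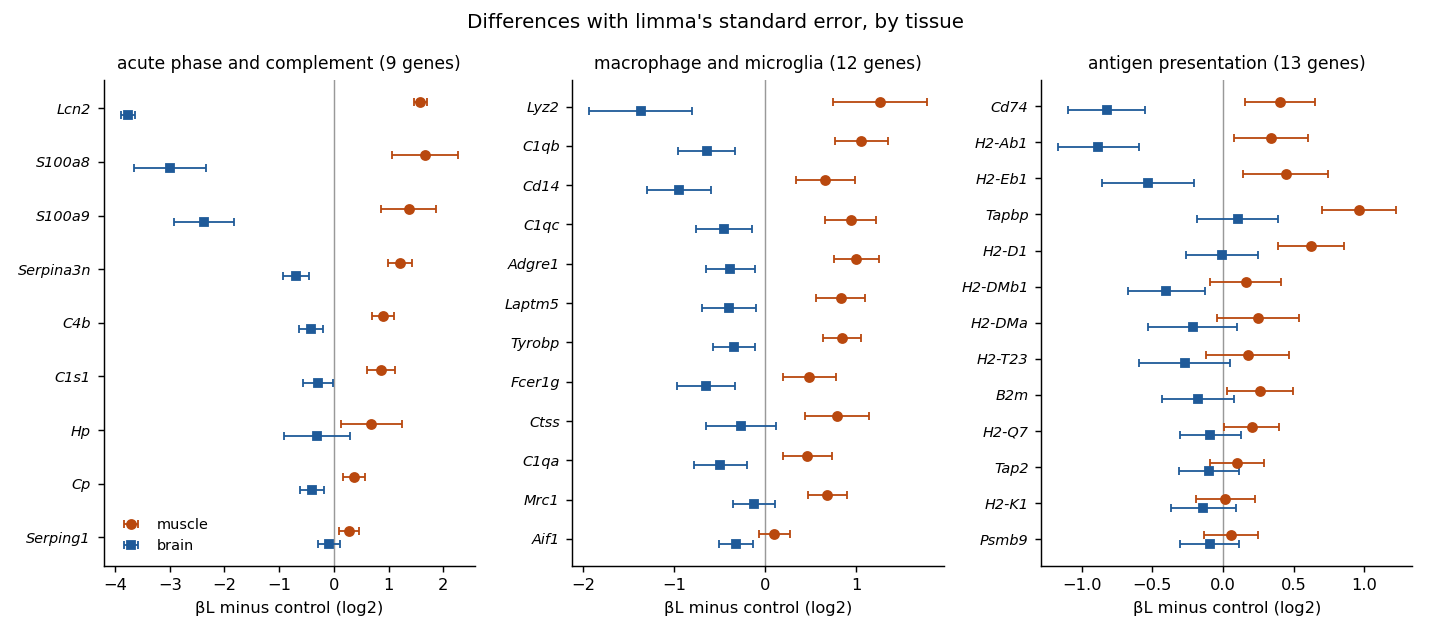
βL-minus-control difference (log2) with limma's standard error for the tested genes of 3 lists, muscle as circles and brain as squares, ordered by the interaction. Circles lie right of 0 and squares left of 0 for the genes of the acute phase and macrophage lists, some of which were below background in a group, and for 12 of 13 antigen presentation genes.

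Antigen presentation genes showed the same order with smaller differences. Of 13 tested, 9 were above background on all 9 arrays and 9 of these 9 were higher in muscle and lower in brain. The medians over the 13 were 0.25 and -0.18, and 0 passed the adjusted test of the interaction (0.0257% of all genes tested). Those with the smallest interaction p were of class II, which carries peptides on macrophages and B cells. H2-Ab1 measured 6.35 and 6.12 on control and 5.39 and 5.32 on βL in brain, and 10.16 and 10.21 on control and 11.12, 10.06 and 10.41 on βL in muscle, where the diets overlapped. The interaction was 1.22 for H2-Ab1 (limma, adjusted p = 0.455) and 1.23 for Cd74, the class II chaperone (0.429). Without muscle control replicate 1 the median in muscle was 0.10 and 8 of 13 genes were higher there. Interferon response genes, 15 tested, had medians of 0.15 in muscle and -0.09 in brain, and the muscle median was -0.04 without that array.

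Genes induced by glucocorticoids, with the metallothioneins, were higher on βL in muscle in 18 of the 18 that were above background on all 9 arrays, of 19 tested, and 11 of these were lower in brain. The medians were 0.60 in muscle, -0.16 in brain and 0.84 for the interaction. Mt1, a metal-binding protein, measured 15.12 and 15.08 on control and 14.83 and 14.80 on βL in brain, and 11.49 and 11.88 on control and 12.55, 12.96 and 13.01 on βL in muscle, with no overlap in either. Its interaction was 1.44 ± 0.26 (limma, adjusted p = 0.239). Sult1a1, a sulfotransferase, was higher by 0.43 in muscle and lower in brain, at -0.68, and Mertk, a receptor for the uptake of dead cells, was at 0.65 and -0.19. Among the others, the clock gene Per1 was higher in both tissues, by 1.81 in muscle and 0.50 in brain, without overlap.

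White adipocyte genes above background on all 9 arrays, 8 of 9 tested, were higher on βL in muscle in 8 of 8 and in brain in 2 of 8. The medians over the 9 were 1.14 and -0.12, and 0 passed the adjusted test of the interaction (0.0257% of all genes tested). Plin4 is on this list and on the list before. Pparg, the regulator of fat cell differentiation, measured 7.63 and 8.37 on control and 9.64, 9.53 and 8.91 on βL in muscle and 5.96 to 6.16 on the 4 brain arrays. Its interaction was 1.26 (limma, adjusted p = 0.442), and Acaca, the first enzyme of fatty acid synthesis, was at 1.43 (adjusted p = 0.491). Of 21 genes on the list 19 were on the array, 13 were above background on every muscle array, and 9 were so on no brain array. The median in muscle was 0.63 without muscle control replicate 1. The summed intensity of all 19 in muscle was 25500 to 47020 on control and 56350 to 73900 on βL. The fat cell hormones Adipoq and Lep were above background on all 5 muscle arrays, Adipoq at 9.26 and 11.15 on control and 12.47, 11.98 and 11.18 on βL, and Fabp4 and Retn on none. The part of fat between the fibres in these differences was not tested.

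Genes of the choroid plexus had a median interaction of -0.81, which was -1.34 without muscle control replicate 1 and -0.26 without muscle control replicate 2. Of 12 genes on that list 8 were on the array and 3 passed in both tissues, Aqp1, Clic6 and Sostdc1, with brain differences of 1.40, 0.92 and 1.14. In muscle, Clic6 and Sostdc1 were each above background on 1 of 2 control arrays. Clic6, a chloride channel protein, measured 8.04 and 8.16 on control and 9.03 and 9.01 on βL in brain. Ttr, the carrier of thyroid hormone that the choroid plexus secretes, was not tested because 1 muscle array detected it, and was at 14.30 and 14.01 on control and 15.32 and 15.22 on βL in brain. The summed intensity of the 8 genes in brain was 17060 to 20710 on control and 39280 to 42120 on βL, and 6 to 8 of them were above background. Most of each sum was the signal of Ttr alone. The mean log2 value over the 8 genes, Ttr among them, was 6.89 to 6.99 on control and 7.845 to 7.877 on βL. Kl, another choroid plexus gene, was at 6.37 and 6.46 on control and 7.63 and 7.88 on βL. The part of a different amount of choroid plexus in the brain samples was not tested.

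Genes of the thalamus are a list written after the values were seen. No count of signs and no median is therefore read from it, and 10 of its 16 genes were tested. Prkcd, a protein kinase C of thalamic relay neurons, measured 6.74 and 6.87 on control and 8.28 and 8.35 on βL in brain, while in muscle it was at 7.73 to 8.85 on all arrays, with overlap and the highest value on control replicate 1. Its interaction was -1.94 ± 0.40 (limma, adjusted p = 0.27). The calcium channel subunit Cacna2d1 and the transcription factor Shox2 were lower in muscle and higher in brain by 1.5-fold and are also on that list. As the list was written after the values were seen, their place on it and its sum are a description only. The summed intensity of its 16 genes in brain was 7520 to 7551 on control and 10190 to 10620 on βL, on arrays that the series describes as cortex. The part of the region sampled in these differences was not tested.

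**Figure D5:**
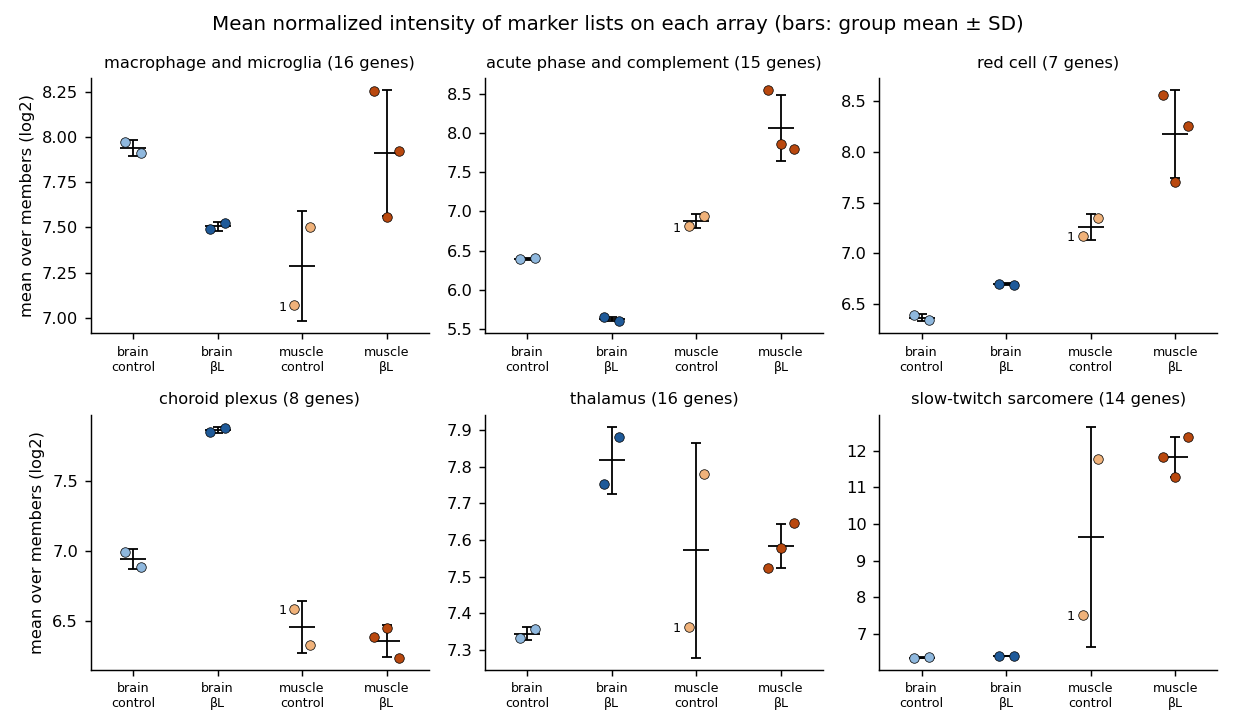
Mean log2 normalized intensity over all genes of 6 marker lists on each array (points), with group means and SD (bars), where 1 marks muscle control replicate 1. The thalamus list was written after the values were seen. Brain pairs lie close together and separate by diet, least in the slow-twitch list (6.35 to 6.41), and muscle control replicate 1 lies far below the other muscle arrays in the slow-twitch list.

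Lists for the route by which βL is known to act had medians near 0 in both tissues. Nqo1 measured 5.89 and 5.92 on control and 5.74 and 6.04 on βL in brain, and 8.80 and 9.20 on control and 9.30, 9.15 and 9.04 on βL in muscle, with overlap in both and an interaction of 0.19 ± 0.23, which was -0.01 without muscle control replicate 1 and 0.38 without muscle control replicate 2. Of 19 tested genes among quinone reductases and targets of NRF2, the antioxidant response factor, 0 passed the interaction test, as against 0.0257% of all genes tested. The medians were 0.08 in muscle and -0.02 in brain. For 14 genes of NAD metabolism and the sirtuins they were 0.11 and 0.02, with Sirt1 at 0.03 and 0.00 and Sirt3, the mitochondrial sirtuin, at 0.01 and 0.05. Nnmt, which methylates nicotinamide, was the member with the smallest interaction p, at 1.19 in muscle and -0.09 in brain (limma, adjusted p = 0.548).

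Among 15 genes of AMPK and PGC-1 the medians were -0.12 in muscle (-0.07 without muscle control replicate 1) and -0.07 in brain, and 3 members differed between tissues at an unadjusted p under 0.05, all with the brain difference above. Prkaa2, a catalytic subunit of AMPK, measured 10.58 and 10.56 on control and 9.01, 10.12 and 9.83 on βL in muscle, and 8.25 and 8.27 on control and 8.93 and 8.76 on βL in brain. Its interaction was -1.50 (limma, adjusted p = 0.387). Ppargc1a, the coactivator PGC-1 alpha, was at -0.60 in muscle and 0.35 in brain, with an interaction of -0.96 (adjusted p = 0.361). The nuclear factor Nrf1 was at 0.04 and -0.15, and Tfam, which maintains mitochondrial DNA, at -0.12 and -0.20. Of the uncoupling proteins, Ucp1 was above background on no array and Ucp3 on all 5 muscle arrays and no brain array. Oxidative phosphorylation subunits, 59 tested, had medians of -0.05 in both tissues, with -0.09 in muscle without muscle control replicate 1. The median of glycolysis genes in muscle was -0.12, and 0.05 without that array.

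In slow-twitch and fatty acid oxidation genes the muscle medians rested on muscle control replicate 1. The slow-twitch list had a median of 1.51 in muscle and -0.03 in brain over 7 genes, and without that array the muscle median was -0.02. Fatty acid oxidation genes, 17 tested, had medians of 0.27 and -0.05, and 0.01 in muscle without it. Cytosolic ribosomal protein genes were lower in brain in 21 of 25 and had medians of -0.13 in brain and 0.06 in muscle, the latter 0.00 without that array.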

How the data were processed

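RNA of skeletal muscle and brain was measured on Illumina Sentrix Mouse-8 v2 arrays, 1 column per array. The authors deposited probe intensities as read by BeadStudio, with neither background correction nor normalization, and a detection p-value per probe and array, made by that software against negative control beads. They also deposited intensities that were quantile normalized over all 14 arrays, used here as an alternative. The genome build behind the probes is not given in the sources used here.

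From the intensities of the 9 control and βL arrays, the background was corrected by normexp with the detection p-values (offset 16), followed by quantile normalization and log2 in limma 3.58.1 (R 4.3.3). Differences were fitted over 4 groups with lmFit and eBayes, with Benjamini-Hochberg adjustment over 7771 genes. Of the probes that passed, 602 had no gene symbol and 2510 were second probes of a gene, and both kinds were left out. A gene in both tissues took the larger of its p-values. The steps were tested on simulated data. Sums and means over whole lists take each gene's brightest probe on the array, which for 2 of 393 tested members (Hp and Slc1a2) is another probe than the one tested.

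Named genes were those called, filled up to 5 on each side by p for the interaction and the same direction, then up to 4 members of each list by interaction p, and the study's enzyme and quantitative PCR genes. Further genes were picked with their values in view. Members and lists were chosen with earlier results of these data known. Replicate numbers are shared between groups, and the sources do not state whether same-numbered arrays share a mouse. Same-numbered arrays of muscle and brain had deviations from their group means that correlated at -0.0887 to 0.0333. These correlations cannot decide whether the arrays were paired, since tissues of the same mouse need not deviate together. The main fit took the arrays as unpaired. Alternatives covered background, offset, normalization, filter, probe choice, moderation, array weights, the replicate block and leaving out each array.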

Additional observations from a re-analysis of the deposited data

Results flagged for a closer look

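The test of the difference between tissues picked out Lcn2 and Lrg1. The muscle difference exceeded the brain difference by 5.35 on the log2 scale for Lcn2 and by 2.70 for Lrg1 in the limma fit, where Lcn2 was below background in the control arrays of muscle and the βL arrays of brain and its difference is therefore a fitted value, with every βL array above every control array in muscle and below every control array in brain. No group was large enough for a check of single arrays far from the others.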

How the results depend on the processing

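The interaction was called for 2 genes, and for 4 without background correction, 4 on the authors' normalized values, 7 with robust and trended moderation and 1 (Lcn2) by the methods' two-way ANOVA. Leaving out 1 array gave 1 to 42 calls. There were 42 without muscle control replicate 2, 11 without βL muscle replicate 2, and 1 without brain control replicate 1, brain control replicate 2 or βL brain replicate 1. The muscle difference was called for 8 genes, and for 4 with normalization within each tissue, 18 with all 14 arrays, 4 with every probe, 1 with array weights, 1 with a spread per tissue, and 0 by the methods' t-test (431 at an unadjusted p under 0.05) and with the muscle arrays alone (650 unadjusted). Leaving out 1 array gave 1 to 278 calls. There were 278 without muscle control replicate 2, 83, 44 and 27 without βL muscle replicates 2, 3 and 1, 2 without muscle control replicate 1 and 1 without each brain array. The brain difference was called for 3 genes, and for 25 with array weights, 25 with a spread per tissue, 16 with the brain arrays alone, 5 with robust moderation and 0 by the methods' t-test (622 unadjusted). Leaving out 1 array gave 1 to 4, with 1 call without brain control replicate 1, brain control replicate 2 or βL brain replicate 1. With the replicate block the counts were 1 for the interaction, within tissues and across them, 9 for muscle, of which 1 was among the 8, and 1 for brain. The cause of these shifts was not tested. The same direction was called for 0 genes under every alternative, with 3 to 41 genes at an unadjusted p under 0.05. Of 3599 values of named genes under an alternative, 3459 kept their side of the threshold, 100 lost and 40 gained a call. No called value turned its sign, and 44 uncalled values did. Most of the 3599 values belong to results not called in the main fit, which could not lose a call. Among the called results so compared, which leave out Cdr2 and Tkfc, the call held in 22 of 22 alternatives for the Lcn2 interaction and in 3 of 22 for the muscle difference of Arhgap4, the extremes. Genes near background have differences that the array floor limits.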

Other observations

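The calorie-restricted arrays give values for the same genes, normalized here with all 14 arrays. They share the control arrays with the βL comparison, so only the levels are set side by side. In brain, Lcn2 was at 4.73 and 4.63 on CR, 4.76 and 4.67 on βL, where it was below background, and 8.41 and 8.49 on control. S100a8 (5.51 and 5.55 on CR, 6.06 and 5.97 on βL) and Lrg1 (6.28 and 6.29 on CR, 5.85 and 6.14 on βL) also lay below both control arrays, at 9.07 and 8.94 and at 7.92 and 7.93.

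In muscle Lcn2 was at 4.56, 4.82 and 4.70 on CR and 5.32 and 5.06 on control, low values that have no order because control was below background, and at 6.73, 6.81 and 6.71 on βL. Lrg1 on CR, at 9.72, 9.90 and 9.45, overlapped control (9.43 and 9.70) and lay below all βL arrays. Aqp1 in brain was at 4.78 and 4.79 on CR, below control (5.41 and 5.19), and at 6.68 on both βL arrays. Hba-a1 in brain was at 12.34 and 12.23 on CR, below control (12.73 and 12.71), and at 13.83 and 14.05 on βL.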
